A study of Mus musculus with 18 samples.

Results

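The 10 genes described here encode homeobox and T-box transcription factors that mark position along the limb and body axis: Pitx1, Tbx4, Tbx5, Tbx15, Tbx18, En1, En2, Emx2, Lhx9 and Alx1. They were looked up by identifier among the 55401 genes of the count table, and all 10 were found. They were chosen with their measured levels in these libraries in view, so their levels, and the counts of members called, describe the libraries and give no independent support to any pattern. The comparisons address whether knockout and wild-type fibroblast lines differed in the positional factors they expressed.

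RNA was sequenced from mouse embryonic fibroblasts (MEFs), the mesenchymal cells grown out of minced embryos, in 18 libraries that formed 6 groups of 3. The S6K1 series held S6K1 WT cells with empty vector (WT EV), S6K1 WT cells with constitutive RAS expression (WT RAS) and S6K1 KO cells with RAS (KO RAS). The S6K1/S6K2 series held S6K1/S6K2 WT cells with empty vector, the same genotype with RAS, and S6K1/S6K2 DKO cells with RAS (DKO RAS). S6K1 and S6K2, encoded by Rps6kb1 and Rps6kb2, are the ribosomal protein S6 kinases downstream of mTORC1, and constitutive oncogenic RAS drives fibroblasts into senescence. Knockout cells with empty vector were not analysed here, so loss was compared in RAS-expressing cells alone. The methods state that embryos were taken at mid-gestation from mice on an inbred C57BL/6 background, that head and viscera were removed, and that the lines were transduced with retroviral vectors. They also state that S6K1 WT and KO lines came from littermates, whereas the WT lines of the S6K1/S6K2 series came from WT mothers of earlier breeding stages and were not littermates of the DKO lines. A line is thus a mixed culture whose share of limb, trunk and other mesenchyme is unknown, and a smaller share of cells of a type cannot be told apart from less RNA per cell.

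As background, the limb bud grows from lateral plate mesenchyme, and its cells keep a memory of where they arose in the homeobox and T-box genes they express. Tbx5 marks the forelimb bud, while Pitx1, a bicoid-type homeodomain factor, acts upstream of Tbx4 in the hindlimb bud. Tbx15, Tbx18 and Emx2 take part in patterning the shoulder blade and body-wall mesenchyme, Lhx9 acts in distal limb mesenchyme with Lhx2, En1 marks ventral limb ectoderm and a dermal fibroblast lineage of the trunk, En2 is best known from the midbrain and hindbrain boundary, and Alx1 from craniofacial mesenchyme. Cultured fibroblasts are known to hold such positional programmes over many divisions.

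The sequences immediately upstream of 3 members are shown because En1 and Emx2 followed each other most closely across the libraries, and because Tbx4 gave the most divergent levels between the wild-type line sets. Each is the 250 bases before the RefSeq start of the gene in the build GRCm38.p6, 5′ to 3′ on the gene's strand, with matches to CCAAT on either strand in capitals. Tbx4 covers chr11:85896515-85896764 (+), En1 chr1:120602237-120602486 (+) and Emx2 chr19:59458440-59458689 (+).
Tbx4: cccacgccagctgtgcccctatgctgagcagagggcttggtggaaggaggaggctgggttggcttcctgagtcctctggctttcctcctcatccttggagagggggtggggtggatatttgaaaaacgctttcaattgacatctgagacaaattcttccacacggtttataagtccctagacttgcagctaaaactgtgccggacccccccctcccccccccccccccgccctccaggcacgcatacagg
En1: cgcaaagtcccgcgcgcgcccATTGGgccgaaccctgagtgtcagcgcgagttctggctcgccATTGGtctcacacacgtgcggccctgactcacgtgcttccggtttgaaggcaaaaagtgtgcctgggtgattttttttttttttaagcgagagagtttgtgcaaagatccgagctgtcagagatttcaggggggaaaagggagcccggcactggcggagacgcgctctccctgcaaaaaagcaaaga
Emx2: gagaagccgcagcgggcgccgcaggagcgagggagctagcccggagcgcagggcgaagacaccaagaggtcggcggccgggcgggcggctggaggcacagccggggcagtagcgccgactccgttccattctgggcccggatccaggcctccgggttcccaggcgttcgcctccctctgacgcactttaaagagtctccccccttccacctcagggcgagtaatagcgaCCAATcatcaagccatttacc
Promoters of 5 of the 10 members were matched in the RefSeq table, these 3 with Tbx18 and Lhx9. Pitx1, Tbx5, Tbx15, En2 and Alx1 had no entry. TAATCC, the core bound by PITX homeodomains, and GGTGTGA, the core bound by T-box factors, were searched on both strands and had no match in any of the 5 windows, where 6.25% and 3.33% of the 32851 promoters of the table held a match. CCAAT was added to the search after the sequences had been viewed and occurs in 33.8% of promoters. En1 held 2 matches, 229 and 187 bases before the start, Emx2 held 1 match at 21 bases, and Tbx4 held none. The En1 and Emx2 windows contained 19 and 24 CpG dinucleotides against 6 for Tbx4, and their GC content was 56.0%, 67.2% and 58.4% in the order En1, Emx2 and Tbx4, beside a median of 52.4% over all promoters. A match describes letters only, and its absence concerns this window alone.

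Library totals ranged from 8319445 to 14402442 counts, so that 3 counts corresponded to between 0.208 and 0.361 CPM, the unit that scales each count to the total of its library. The targeted genes followed their labels. Rps6kb1 read 23.6 to 37.0 CPM in KO RAS against 61.6 to 74.6 in its WT partners, and 34.5 to 39.7 in DKO RAS against 75.5 to 83.7. Rps6kb2 read 2.68 to 3.04 CPM in DKO RAS and 24.1 to 28.9 in the WT RAS libraries of that series. All 7 fibroblast markers had more than 3 counts in every library. Myeloid RNA was present throughout, since all 7 macrophage markers had over 3 counts in each library, and their summed level was 196 to 660 CPM in KO RAS against 563 to 2740 in its WT partners, and 63.8 to 181 in DKO RAS against 153 to 771. Of the neural markers given here, Elavl4 reached 87 counts and Sox2 reached 36 in the library where each was highest, while Emx1, Wnt1 and Elavl3 had 2 counts or fewer in every library. The part of these marker differences in the levels given here was not tested.

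On the RPKM scale, which divides CPM by exon length in the NCBIM37 annotation and so compares genes, Tbx15 was the most abundant member, with a mean of 29.2 over the 18 libraries and a range of 19.1 to 55.1. Lhx9 followed at 8.64 (2.78 to 18.5), Tbx4 at 6.41 (1.3 to 24.5), Emx2 at 4.98 (2.61 to 10.7), Pitx1 at 4.27 (0.884 to 8.68), Tbx18 at 4.16 (2.3 to 5.97), En1 at 3.97 (1.02 to 11.3) and Tbx5 at 2.47 (0.443 to 6.1). The range of Tbx15 lay above that of Lhx9, and the ranges of neighbours overlapped from Lhx9 down to Tbx5. Alx1 at 0.604 (0.0253 to 2.33) overlapped Tbx5 as well, and En2 at 0.11 was detected above 3 counts only in DKO libraries. MEF cultures of every group held RNA of forelimb and hindlimb factors at the same time. The plot of CPM by library shows all of these values within each series.

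**Figure D1:**
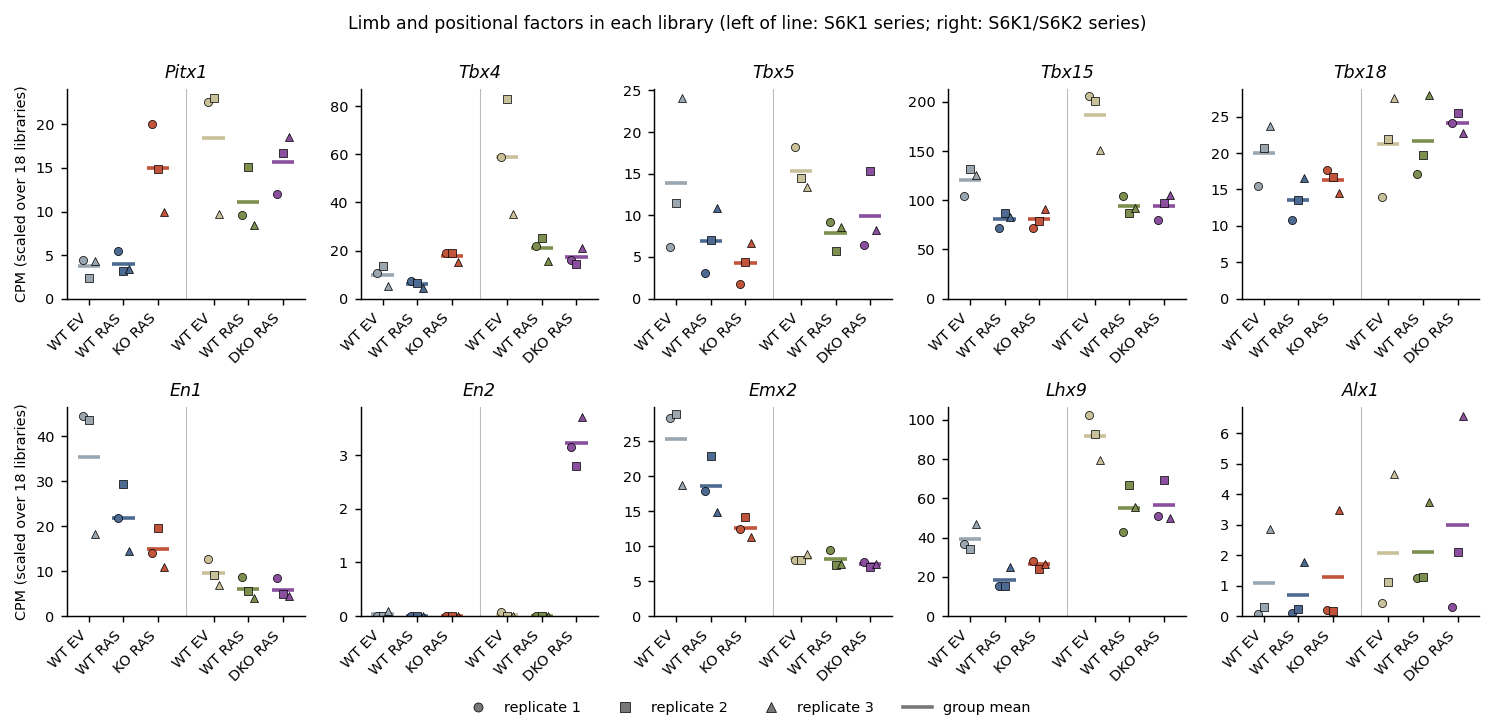
CPM of each of the 10 members (y axis, own scale per gene) in the 18 libraries, grouped on the x axis by series, genotype and vector, with a marker shape for each replicate number and a bar at the group mean. Pitx1 and Tbx4 sit higher in KO RAS than in WT RAS of the S6K1 series, and En2 rises above 3 counts in the 3 DKO libraries alone.

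Among the hindlimb factors, Pitx1 and Tbx4 were both higher in S6K1 KO than in WT cells with RAS in all 3 pairs of lines with the same replicate number, and both overlapped between DKO and WT cells. Pitx1 lies at chr13:55926415-55937553 (-) in NCBIM37. Pitx1 in the S6K1 series stood at 4.32, 2.31 and 4.31 CPM with EV, at 5.21, 3.12 and 3.37 with RAS in WT cells and at 19.8, 14.9 and 9.83 with RAS in KO cells. All 3 KO libraries lay above all 6 WT libraries of the series, whereas WT EV and WT RAS overlapped. Pitx1 in the S6K1/S6K2 series stood at 23.2, 23.4 and 9.88 CPM with EV, at 9.83, 15.2 and 8.62 with RAS in WT cells and at 12.1, 16.9 and 18.9 with RAS in DKO cells. The 3 groups overlapped, and their WT lines were at the level of the KO lines of the S6K1 series. The fitted log2 fold change of KO against WT with RAS was 1.93 (SE 0.35), a 3.81-fold difference, with an unadjusted edgeR p of 0.000309 and an adjusted p of 0.521 over all genes. Within pairs of equal number, the ratio of KO to WT was 3.81, 4.77 and 2.91. With the replicate number as a block, the log2 fold change was 1.93 and the adjusted edgeR p fell to 0.00108. DKO against WT gave 0.51 (SE 0.35) with an adjusted p of 1. The RAS change of Pitx1 was 0.10 (SE 0.35, adjusted p = 0.894, edgeR) in the S6K1 series and -0.75 (SE 0.35, adjusted p = 0.138, edgeR) in the S6K1/S6K2 series, where it passed without WT EV replicate 3 (-1.04, adjusted p = 0.0202).

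Tbx4, the hindlimb T-box factor, lies at chr11:85699924-85729599 (+), 582.8 kb from Rps6kb1. Tbx4 in the S6K1 series stood at 10.2, 13.3 and 5.04 CPM with EV, at 7.17, 6.15 and 4.42 with RAS in WT cells and at 18.8, 19 and 15 with RAS in KO cells. KO RAS lay above both WT groups without overlap, and WT RAS overlapped WT EV. Tbx4 in the S6K1/S6K2 series stood at 60.6, 84.7 and 35.7 CPM with EV, at 22.3, 25.6 and 15.9 with RAS in WT cells and at 16.1, 14.7 and 21.7 with RAS in DKO cells. Here WT EV was above WT RAS and DKO RAS, which overlapped each other. The KO against WT difference was 1.57 on the log2 scale (SE 0.33), 2.98-fold, with an unadjusted edgeR p of 0.000947 and an adjusted p of 0.587; with the block it was 1.59 and the adjusted p was 0.0011. The 3 pairs gave KO to WT ratios of 2.63, 3.09 and 3.4. DKO against WT was -0.28 (SE 0.31) with an adjusted p of 1. Tbx4 fell by 1.51 on the log2 scale with RAS (SE 0.30, adjusted p = 0.0067, edgeR) in the S6K1/S6K2 series, to 0.352 of the EV level. In the S6K1 series its RAS change was -0.70 (SE 0.33, adjusted p = 0.218, edgeR), which passed with the block (-0.67, adjusted p = 0.0293) and without WT EV replicate 3 (-0.996, adjusted p = 0.0372).

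Tbx5, the forelimb T-box factor, lies at chr5:120284672-120335227 (+). Tbx5 in the S6K1 series stood at 6.05, 11.2 and 23.9 CPM with EV, at 2.9, 6.78 and 10.8 with RAS in WT cells and at 1.73, 4.45 and 6.58 with RAS in KO cells. These groups overlapped, and replicate 3 exceeded replicate 1 in each of them. Tbx5 in the S6K1/S6K2 series stood at 18.7, 14.8 and 13.6 CPM with EV, at 9.4, 5.83 and 8.71 with RAS in WT cells and at 6.44, 15.5 and 8.39 with RAS in DKO cells. WT RAS lay below WT EV without overlap in that series. The RAS change of Tbx5 was -0.996 (SE 0.62, adjusted p = 0.352, edgeR) in the S6K1 series, where the block gave -0.98 and an adjusted p of 0.000812. In the S6K1/S6K2 series it was -0.97 (SE 0.33, adjusted p = 0.0531, edgeR), and DESeq2 gave an adjusted p of 0.0246. Tbx5 was lower with RAS in 3 of 3 lines of both series. KO against WT was -0.68 (SE 0.64, adjusted p = 0.997, edgeR), with KO to WT ratios of 0.595, 0.656 and 0.607 in the 3 pairs and an adjusted p of 0.0581 with the block. DKO against WT was 0.34 (SE 0.33).

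The ratio of a hindlimb to the forelimb factor within a library removes its depth, and is given as a description. For Tbx4 to Tbx5 on the log2 scale, the WT RAS libraries of the S6K1 series stood at 1.31, -0.14 and -1.3, and the KO RAS libraries at 3.45, 2.1 and 1.19. The groups overlapped, because KO replicate 3 lay below WT replicate 1, although KO exceeded its WT partner in all 3 pairs. WT RAS of the S6K1/S6K2 series stood at 1.24, 2.13 and 0.87 and DKO RAS at 1.32, -0.08 and 1.37. For Pitx1 to Tbx5, WT RAS of the S6K1 series stood at 0.84, -1.12 and -1.68 and KO RAS at 3.52, 1.74 and 0.58. The plot of both ratios places the wild-type libraries of the S6K1/S6K2 series, with group means of 1.87 (SD 0.59, n = 3) in EV and 1.42 (SD 0.65, n = 3) in RAS for Tbx4 to Tbx5, above the means of -0.41 and -0.04 in the wild-type groups of the S6K1 series.

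**Figure D2:**
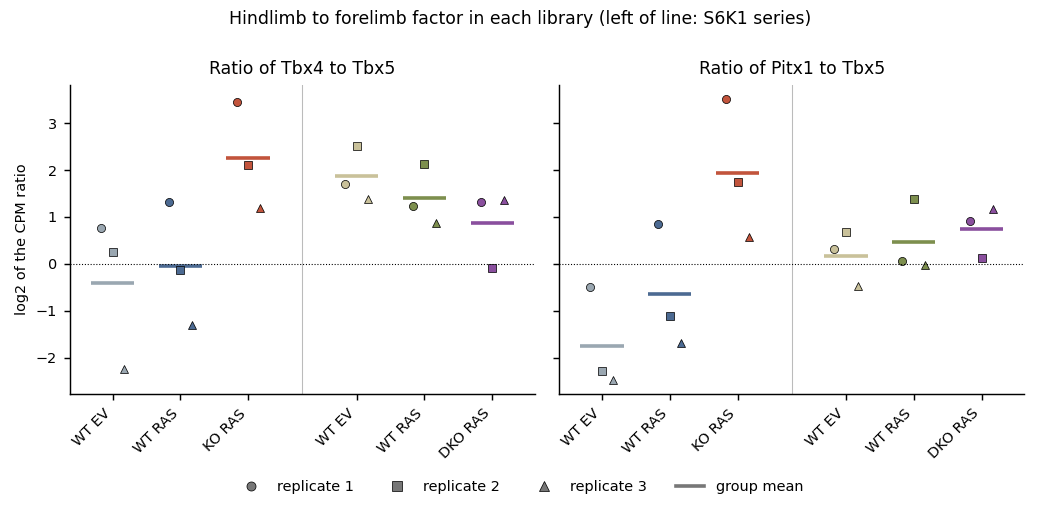
log2 ratio of the CPM of Tbx4 to Tbx5 (left panel) and Pitx1 to Tbx5 (right panel) on the y axis, for each library of the 6 groups on the x axis, with the group mean as a bar and a shape for each replicate number. KO RAS libraries reach 1.19 to 3.45 for Tbx4 to Tbx5, while WT RAS libraries of the same series span -1.3 to 1.31.

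Tbx15, a T-box factor of body-wall and limb mesenchyme, fell with RAS in both series and overlapped between genotypes after loss of S6K1 or of both kinases. It lies at chr3:99044304-99158182 (+). Tbx15 in the S6K1 series stood at 102, 129.7 and 125 CPM with EV, at 68.9, 83.7 and 83.1 with RAS in WT cells and at 71.5, 78.5 and 90.2 with RAS in KO cells. Tbx15 in the S6K1/S6K2 series stood at 212, 205 and 154 CPM with EV, at 107, 88.4 and 93.1 with RAS in WT cells and at 80.2, 98.8 and 107 with RAS in DKO cells. WT RAS was below WT EV without overlap in both series. The RAS change was -0.60 (SE 0.14, adjusted p = 0.0227, edgeR) in the S6K1 series and -0.98 (SE 0.16, adjusted p = 0.00264, edgeR) in the S6K1/S6K2 series. The difference between these changes, -0.40 (SE 0.21), had an adjusted p of 0.443. KO against WT was 0.03 (SE 0.14) and DKO against WT -0.01 (SE 0.16). The RAS call of the S6K1 series was lost without WT EV replicate 2 (adjusted p = 0.0865), WT EV replicate 3 (0.0731), WT RAS replicate 1 (0.0854) or WT RAS replicate 2 (0.0614), all in edgeR.

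Tbx18, a T-box factor of somites and shoulder-girdle mesenchyme, lies at chr9:87597635-87626095 (-). Tbx18 in the S6K1 series stood at 15.1, 20.4 and 23.6 CPM with EV, at 10.3, 13.1 and 16.5 with RAS in WT cells and at 17.6, 16.6 and 14.2 with RAS in KO cells. Tbx18 in the S6K1/S6K2 series stood at 14.41, 22.4 and 28.1 CPM with EV, at 17.6, 20.01 and 28.4 with RAS in WT cells and at 24.3, 25.9 and 23.2 with RAS in DKO cells. Its groups overlapped in all comparisons of both series. The RAS change was -0.57 (SE 0.22, adjusted p = 0.129, edgeR) in the S6K1 series, and the block gave -0.56 with an adjusted p of 0.0301. In the S6K1/S6K2 series it was 0.03 (SE 0.25), with 1 of 3 lines lower, against 3 of 3 lines in the S6K1 series. The difference of 0.58 (SE 0.34) between the RAS changes had an adjusted p of 0.478. The fitted difference was 0.28 (SE 0.22) with KO and 0.15 (SE 0.25) with DKO.

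Lhx9, a LIM homeodomain factor of distal limb mesenchyme and the gonad, fell with RAS in both series. It lies at chr1:140721763-140745153 (-). Lhx9 in the S6K1 series stood at 35.8, 33.5 and 46.5 CPM with EV, at 14.9, 14.9 and 24.7 with RAS in WT cells and at 27.7, 24.1 and 26.4 with RAS in KO cells. Lhx9 in the S6K1/S6K2 series stood at 105, 94.7 and 80.8 CPM with EV, at 43.8, 67.4 and 56.6 with RAS in WT cells and at 51.2, 70.1 and 51.1 with RAS in DKO cells. WT RAS was below WT EV without overlap in both. The RAS change was -1.09 (SE 0.22, adjusted p = 0.0105, edgeR) in the S6K1 series, to 0.471 of the EV level, and -0.74 (SE 0.19, adjusted p = 0.0183, edgeR) in the other. KO against WT was 0.52 (SE 0.22, adjusted p = 0.674, edgeR), higher in 3 of 3 pairs, with an adjusted p of 0.0615 under the block, and DKO against WT was 0.04 (SE 0.19). The RAS call was lost without WT RAS replicate 2 in the S6K1 series (adjusted p = 0.0503, edgeR), and in the other series without WT EV replicate 2 (0.0582), WT RAS replicate 1 (0.0504) or WT RAS replicate 3 (0.0582). Of 6 genes listed here under gonad and kidney, Nr5a1 and Pax2 had no more than 1 count in any library, while Amh, Pax8 and Foxl2 reached 7, 9 and 13 counts. Upk3b reached 217 counts, and its level alone is not taken to mark gonad or kidney cells. Upk3b was lower in WT RAS than in WT EV without overlap in both series, at -2.38 (SE 0.94, adjusted p = 0.14, edgeR) and -1.83 (SE 0.65, adjusted p = 0.065, edgeR), and the part of cells that express it in the Lhx9 values was not tested.

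Emx2, a homeodomain factor of the shoulder blade, urogenital ridge and cortex, was lower in KO than in WT cells in all 3 pairs. It lies at chr19:59533180-59539847 (+). Emx2 in the S6K1 series stood at 27.7, 28.4 and 18.7 CPM with EV, at 17.2, 22.1 and 14.9 with RAS in WT cells and at 12.4, 14.2 and 11.1 with RAS in KO cells. KO RAS was below WT RAS without overlap. Emx2 in the S6K1/S6K2 series stood at 8.21, 8.13 and 9 CPM with EV, at 9.72, 7.38 and 7.6 with RAS in WT cells and at 7.73, 7.1 and 7.58 with RAS in DKO cells. The 9 libraries of that series lay between 7.1 and 9.72 CPM, below every library of the S6K1 series. KO against WT was -0.52 (SE 0.21, unadjusted p = 0.0347, adjusted p = 0.643, edgeR), and with the block -0.52 with an adjusted p of 0.0403. The RAS change was -0.47 (SE 0.21, adjusted p = 0.191, edgeR) in the S6K1 series, where the block gave -0.47 and 0.00973, and -0.04 (SE 0.20) in the S6K1/S6K2 series. DKO against WT was -0.14 (SE 0.20). Emx1, the cortical paralog, had at most 1 count in any library.

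En1, a homeodomain factor of the ventral limb ectoderm and of trunk dermal fibroblasts, lies at chr1:122498995-122505873 (+). En1 in the S6K1 series stood at 43.5, 42.9 and 18.1 CPM with EV, at 21, 28.4 and 14.38 with RAS in WT cells and at 13.8, 19.5 and 10.8 with RAS in KO cells. En1 in the S6K1/S6K2 series stood at 12.9, 9.28 and 7.08 CPM with EV, at 8.86, 5.72 and 4.08 with RAS in WT cells and at 8.52, 4.87 and 4.51 with RAS in DKO cells. Replicate 3 was the lowest library in 6 of 6 groups, and RAS libraries were below their EV partners in 3 of 3 lines of both series. The RAS change was -0.72 (SE 0.37, adjusted p = 0.259, edgeR) in the S6K1 series and -0.65 (SE 0.37, adjusted p = 0.216, edgeR) in the S6K1/S6K2 series. With the block these became -0.69 (adjusted p = 0.00586) and -0.68 (adjusted p = 0.0383). The block of the S6K1/S6K2 series also matched DKO to WT libraries by number, although those numbers were not taken as pairs. KO against WT was -0.53 (SE 0.38, adjusted p = 0.997, edgeR), with ratios of 0.658, 0.689 and 0.748 in the pairs, and DKO against WT was -0.06 (SE 0.37).

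En2, the engrailed paralog of the midbrain and hindbrain boundary, was present in DKO cells and at or near 0 elsewhere. It lies at chr5:28492236-28500152 (+). The DKO RAS libraries held 32, 28 and 42 counts, a mean of 3.27 CPM (SD 0.483, n = 3). Of the other 15 libraries 13 had no count and the highest had 1. Against the 3 WT RAS libraries, all at 0, DKO was at least 10.2-fold higher, taking a floor of 3 counts per library (0.32 CPM). The groups did not overlap, while the adjusted p was 0.0659 in edgeR and 6.75e-05 in DESeq2. En2 passed the filter on low counts through the DKO libraries alone, and was chosen with its levels known. These p-values therefore describe the libraries and give no independent support. The 3 genes tested within 1 Mb of En2 had log2 fold changes between -0.15 and 0.14 in the same comparison, none with an unadjusted p under 0.05. The hindbrain-boundary markers Wnt1 and Pax5 had at most 1 and 3 counts in any library, while the neural markers Elavl4 and Sox2 reached 87 and 36. The part of neural cells in the En2 values was not tested.

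Alx1, a paired-type homeodomain factor of craniofacial mesenchyme, lies at chr10:102470481-102491685 (-) and varied more between lines of a group than between groups. Alx1 in the S6K1 series stood at 0.0696, 0.298 and 2.84 CPM with EV, at 0.0854, 0.234 and 1.77 with RAS in WT cells and at 0.182, 0.153 and 3.42 with RAS in KO cells. Alx1 in the S6K1/S6K2 series stood at 0.437, 1.15 and 4.72 CPM with EV, at 1.3, 1.31 and 3.8 with RAS in WT cells and at 0.297, 2.13 and 6.68 with RAS in DKO cells. Replicate 3 was the highest library in 6 of 6 groups, and replicate numbers carry no order. Log2 differences were -0.53 (SE 1.48) and 0.04 (SE 1.0) with RAS, 0.83 (SE 1.45) with KO and 0.50 (SE 0.99) with DKO, all with groups that overlapped. At 0.0696 to 6.68 CPM a difference of this size was not detectable at this depth and spread.

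Read across the members, no member was called higher with RAS and a subset fell. In the S6K1 series 2 of the 9 members tested were called lower in WT RAS than in WT EV, Tbx15 and Lhx9, beside 6.09% of all 14036 genes. En2 did not pass the filter on low counts there. Tbx15 and Lhx9 also showed groups without overlap, as 15% of all genes did in that direction. In the S6K1/S6K2 series 3 of 10 were called lower, Tbx4, Tbx15 and Lhx9, beside 12.7% of 13881 genes, and 4 did not overlap when Tbx5 is included, beside 21.7%. With the replicate block the calls rose to 7 of 9 in the S6K1 series, where 36.2% of all genes were called in either direction, and to 4 of 10 in the other, where 28.7% were. The block fit of that other series also held the DKO libraries, matched to WT libraries by numbers that were not taken as pairs. Tbx4, Tbx5, Tbx15, En1 and Lhx9 were lower with RAS in 3 of 3 lines in both series. The median log2 change of the members was -0.60 in the S6K1 series and -0.75 in the S6K1/S6K2 series, beside 0.002 and -0.02 over all genes. No member's RAS change differed between the series at an adjusted p under 0.05, and edgeR called no gene of 14483 (0%), although 1819 had an unadjusted p under 0.05. DESeq2 called 143 genes there and no member. Summed fibroblast markers were 29400 to 47400 CPM in EV and 13100 to 17800 in RAS libraries. Of these 7 markers, the collagens Col1a1, Col1a2 and Col3a1 were called lower in both series, at -1.43 to -2.23 on the log2 scale. Lum was called higher in the S6K1 series (1.07, adjusted p = 0.0448, edgeR) and stood at -1.73 (adjusted p = 0.0695, edgeR) in the other, while Pdgfra, Thy1 and Vim, none of them called, spanned -0.07 to 0.74. The part of these markers in the falls was not tested.

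**Figure D3:**
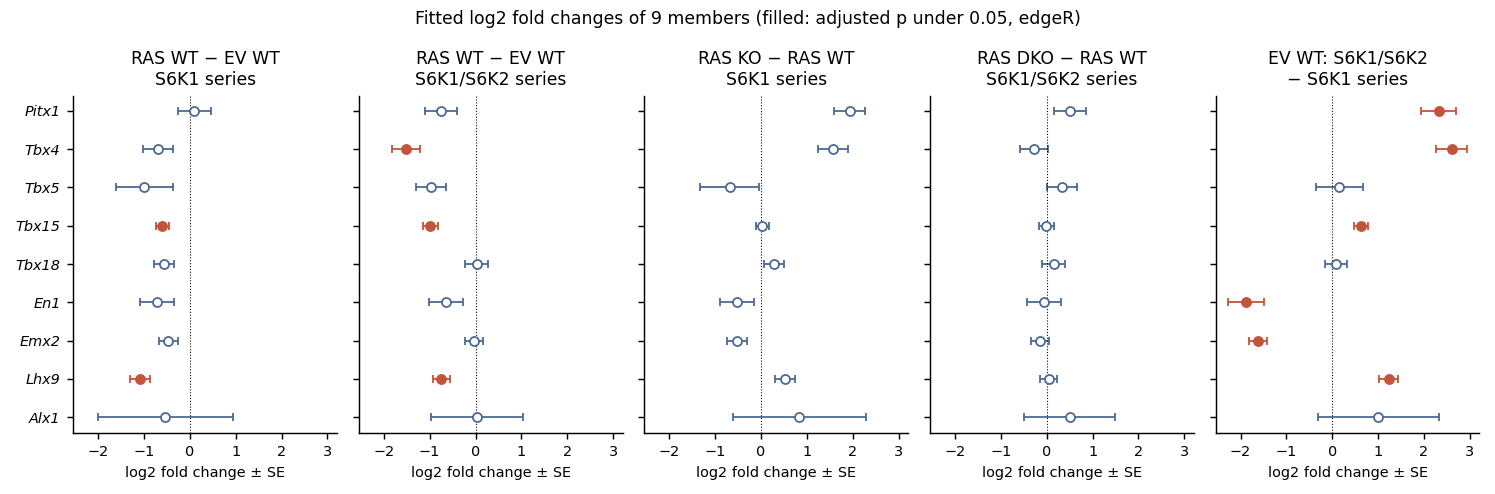
Fitted log2 fold change with its SE (x axis) for each of 9 members (y axis, En2 left out because most of its libraries are at 0), 1 panel per comparison, with filled points for an adjusted edgeR p under 0.05. Tbx15 and Lhx9 are filled in both RAS panels, no point is filled for KO or DKO, and 6 are filled for the wild-type EV libraries of the S6K1/S6K2 series against those of the S6K1 series.

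Loss of S6K1 gave no member call in edgeR without the block, 0 of 9, in a comparison that called 1 of 14036 genes (0.00712%) and gave 963 genes an unadjusted p under 0.05. Of the members, 4 had such a p: Pitx1 and Tbx4 higher, Emx2 lower and Lhx9 higher. Pitx1, Tbx4 and Emx2 had groups without overlap, beside 8.02% of all genes. DESeq2 called Pitx1 and Tbx4, where it called 0.449% of all genes, and the block called Pitx1, Tbx4 and Emx2, where it called 4.15%. The methods state that WT and KO lines came from littermates, and deviations from the group means correlated within each pair of equal number. Macrophage markers were lower with KO, 7 of 7 with a median of -2.15 on the log2 scale, all with an unadjusted edgeR p under 0.05 and none called. Their part in the values of Pitx1, Tbx4 and Emx2 was not tested.

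Loss of both kinases gave no member call in edgeR, 0 of 10, where 3 of 13881 genes (0.0216%) were called and 179 had an unadjusted p under 0.05. En2 was the member with such a p and with groups that did not overlap, beside 6.07% of all genes, and DESeq2 called En2 where it called 0.072% of genes. Because En2 entered the tests through the DKO libraries alone, its p and its call are descriptions of those libraries. For Pitx1 and Tbx4 the loss effects of the series were tested against each other. The DKO effect minus the KO effect was -1.39 (SE 0.52, unadjusted p = 0.0167, edgeR) for Pitx1 and -1.82 (SE 0.48, unadjusted p = 0.00168, edgeR) for Tbx4, both with an adjusted p of 1. That comparison called 0.0069% of genes, namely Rps6kb2, so the higher Pitx1 and Tbx4 of KO cells were not shown to differ from the DKO result.

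The wild-type lines without RAS differed between the series in 6 members. In the EV libraries of the S6K1/S6K2 series against those of the S6K1 series, 6 of 10 members were called, beside 8.95% of 14483 genes. Tbx4 was higher by 2.60 on the log2 scale (SE 0.35, 6.06-fold, adjusted p = 0.00119, edgeR), Pitx1 by 2.32 (SE 0.38, 4.99-fold, adjusted p = 0.00387), Lhx9 by 1.23 (SE 0.21, adjusted p = 0.00442) and Tbx15 by 0.63 (SE 0.15, adjusted p = 0.0184). En1 was lower, at -1.89 (SE 0.39, adjusted p = 0.0108), and so was Emx2, at -1.61 (SE 0.19, adjusted p = 0.000737). These 6 had groups without overlap, beside 25.4% of all genes. Tbx5 at 0.15 (SE 0.51), Tbx18 at 0.09 (SE 0.24) and Alx1 at 0.997 (SE 1.32) were not called. Tbx15 lost its call without WT EV replicate 1 or 2 of either series (adjusted p from 0.0611 to 0.0864, edgeR), and En1 without WT EV replicate 2 of either (0.0611 and 0.0531). Macrophage markers were lower in the same comparison, 7 of 7 with a median of -1.99. Of these, 3 had an unadjusted edgeR p under 0.05 and none was called. Their summed levels overlapped, at 122 to 1040 against 477 to 2390 CPM. Series, breeding stage and preparation of the lines cannot be told apart.

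The KO comparison and that of the wild-type EV sets share the WT lines of the S6K1 series, so their values are given side by side and no likeness is read from them. The log2 differences of KO against WT with RAS and of the wild-type EV sets were 1.93 and 2.32 for Pitx1, 1.57 and 2.60 for Tbx4, -0.68 and 0.15 for Tbx5, 0.03 and 0.63 for Tbx15, and 0.28 and 0.09 for Tbx18. They were 0.52 and 1.23 for Lhx9, -0.52 and -1.61 for Emx2, -0.53 and -1.89 for En1, and 0.83 and 0.997 for Alx1. On the scale of all 18 libraries, Pitx1 spanned 2.35 to 5.42 CPM in the 6 WT libraries of the S6K1 series, 9.97 to 20 in KO and 8.49 to 23.0 in the 6 WT libraries of the S6K1/S6K2 series. Tbx4 spanned 4.44 to 13.6, 15.2 to 19 and 15.7 to 83.2 CPM in the same order. All 3 KO libraries lay within the range of the 12 WT libraries for each member, except for Tbx5, where 2 of 3 did. DKO libraries lay within it too, except for En2 (0 of 3), Emx2 (2 of 3) and Alx1 (2 of 3). That range pools EV with RAS and both line sets, and so spans gaps between them. Emx2 in KO, at 11.2 to 14.2 CPM, lay between the WT sets at 7.31 to 9.47 and 14.9 to 28.8. Within the range of the 6 WT RAS libraries lay 2 of 3 KO libraries for Pitx1 and Tbx5, and 3 of 3 otherwise. Of the DKO libraries, 1 of 3 lay there for Pitx1 and 0 of 3 for En2. For Tbx5, Tbx15, Emx2, Lhx9 and Alx1, 2 of 3 did.

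Some members rose and fell together across libraries, which share lines, series and treatment, so the coefficients below are descriptions. En1 and Emx2 had a Pearson r of log2 CPM of 0.94 over the 18 libraries, 0.96 over the 9 of the S6K1 series and 0.54 over the 9 of the S6K1/S6K2 series, where Emx2 hardly varied. Pitx1 and Tbx4 had 0.78, 0.69 and 0.59 in the same order. Pitx1 and Emx2 ran in opposite directions, at -0.81, -0.76 and -0.39. Tbx4 and Tbx15 differed between the series, at -0.18 over the S6K1 and 0.93 over the S6K1/S6K2 libraries.

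**Figure D4:**
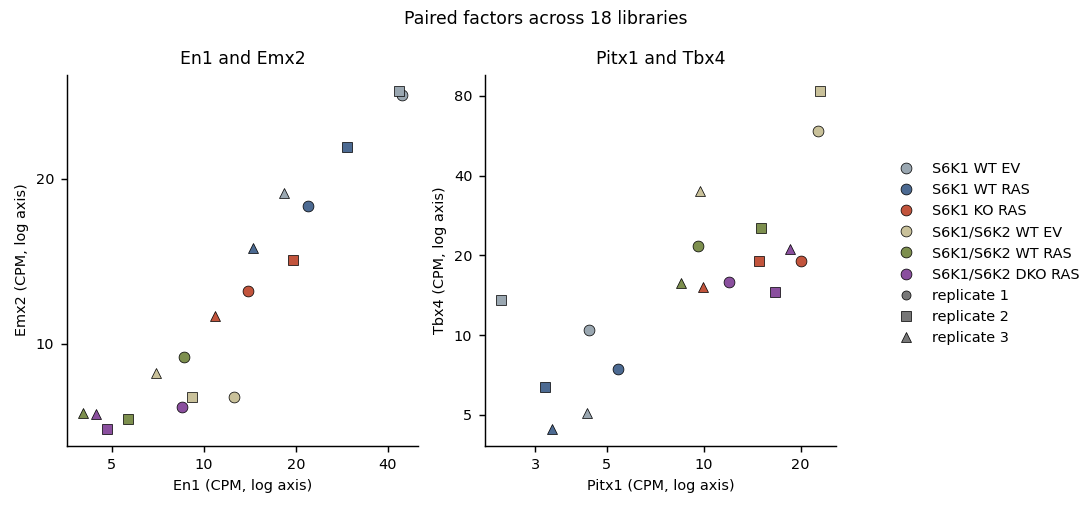
CPM of En1 against Emx2 (left) and of Pitx1 against Tbx4 (right) in the 18 libraries, both axes logarithmic, coloured by group and shaped by replicate number. The 6 wild-type libraries of the S6K1 series lie at the upper end for Emx2 and at the lower end for Pitx1 and Tbx4. For En1 they lie at the upper end with KO replicate 2 among them. The KO libraries lie between these wild-type libraries and the S6K1/S6K2 series for Emx2.

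Genes most alike to each member by this correlation over 18 libraries were taken by a fixed rule of 3 per member. For En1 they were Alx4 (0.95), Irx1 (0.95) and Emx2 (0.94), and for Emx2 they were Irx1 (0.96), S1pr3 (0.95) and En1 (0.94). For Lhx9 they were Plce1 (0.95), Igfbp3 (0.95) and Hoxd13 (0.94), and for Tbx15 Boc (0.98), Gas1 (0.98) and Pdgfrl (0.97). Alx4, Irx1 and Hoxd13 are themselves homeobox genes. Likeness was lower for Pitx1, with S100a16 (0.86), Rnf217 (0.84) and Ccni (0.84), and for Tbx4, with Tmub2 (0.84), Clcf1 (0.82) and Xrcc3 (0.81). Tbx5 had Wars2 (0.91), B4galt6 (0.88) and Pth1r (0.86), Tbx18 had Ralgds (0.89), Speg (0.86) and Ccdc136 (0.85), and Alx1 had Msi1 (0.92) with the near-identical paralogs Kng1 (0.92) and Kng2 (0.90), whose counts are uncertain. En2, at 0 in most libraries, had Eef1a1 (0.80) and Tbx2 (0.75) as its closest named genes.

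Another 133 positional genes in 7 lists were read from the same fits: other T-box factors, limb mesenchyme factors, limb signals, craniofacial, somite and axial, lateral plate and visceral factors, and Hox genes. With RAS, 15 of 92 tested were called in the S6K1 series (16.3%; 4 higher, 11 lower), beside 13.2% of all genes, and 29 of 92 in the S6K1/S6K2 series (31.5%; 8 higher, 21 lower), beside 26.3%. The genes called higher in both were Eomes, Grem1 and Msx2, which are 75.0% of the first series' list and 37.5% of the second's. Gli3, Msx1, Osr1, Osr2, Pbx3, Prrx2 and Rspo2 were called lower in both, 63.6% and 33.3% of the lists. Msx2 rose by 2.51 and 2.97 on the log2 scale, and Grem1, a BMP antagonist of the limb bud, by 1.38 and 2.26. Rspo2, a WNT agonist of the limb, changed by -4.19 and -4.35, and Prrx2, a homeobox gene of limb mesenchyme, by -1.90 and -2.44. By list, the S6K1 series called 8 of 20 limb mesenchyme factors, 4 of 5 limb signals, 2 of 8 lateral plate factors, and 1 of 6 T-box factors in edgeR. Without the block, edgeR called no craniofacial factor of 11, somite and axial factor of 8 or Hox gene of 34 there, while 3, 1 and 3 of them had an unadjusted p under 0.05 and DESeq2 called Alx4 and Hoxb4. With the block 41 of 92 were called (44.6%), beside 36.2% of all genes, among them Alx4, Lhx6, Six4 and Tfap2a of the craniofacial list, Foxc1, Pax1, Pax9 and Sim1 of the somite and axial list, and Hoxa3, Hoxb3, Hoxb4, Hoxb6 and Hoxd13. Leaving out WT RAS replicate 2 lowered the count of 15 to 8 in the S6K1 series and that of 29 to 19 in the other. In the S6K1/S6K2 series 4 of 32 Hox genes were called, all lower. Of 8 somite and axial factors tested there, 1 was called higher and 5 lower, with Nkx3-2 at -4.95 and Meox2 at -3.65 among the lower.

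With loss of S6K1, 0 of 92 of these genes were called in edgeR or in DESeq2, and 15 had an unadjusted edgeR p under 0.05. The smallest were those of Msx1 (1.41, SE 0.37), Eomes (-0.85, SE 0.27) and Lhx2 (1.04, SE 0.34), each with an adjusted p of 0.587. With the block 7 of 92 were called (7.61%), beside 4.15% of all genes: Msx1, Lhx2, Hoxd13 and Tbx2 higher, and Eomes, Hoxc9 and Hoxb9 lower. With loss of both kinases 0 of 92 were called by edgeR or DESeq2, and 3 had an unadjusted edgeR p under 0.05, Tbx2 (0.80, SE 0.23), Pax1 (-1.02, SE 0.33) and Nr2f2 (0.42, SE 0.16). Between the wild-type EV sets 32 of 99 were called (32.3%; 19 higher, 13 lower), beside 8.95% of all genes. Of 34 Hox genes 6 were called higher there and 9 lower. Hoxd13 and Hoxa13, the distal limb and posterior members, were higher by 2.01 and 1.999, whereas Hoxc10, Hoxb9, Hoxc9 and Hoxc8 stood at -1.83, -1.51, -1.50 and -1.37. Limb mesenchyme factors gave 7 higher and 3 lower of 21, Msx1 among them at 1.98, and Alx4 of the craniofacial list stood at -2.18.

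**Figure D5:**
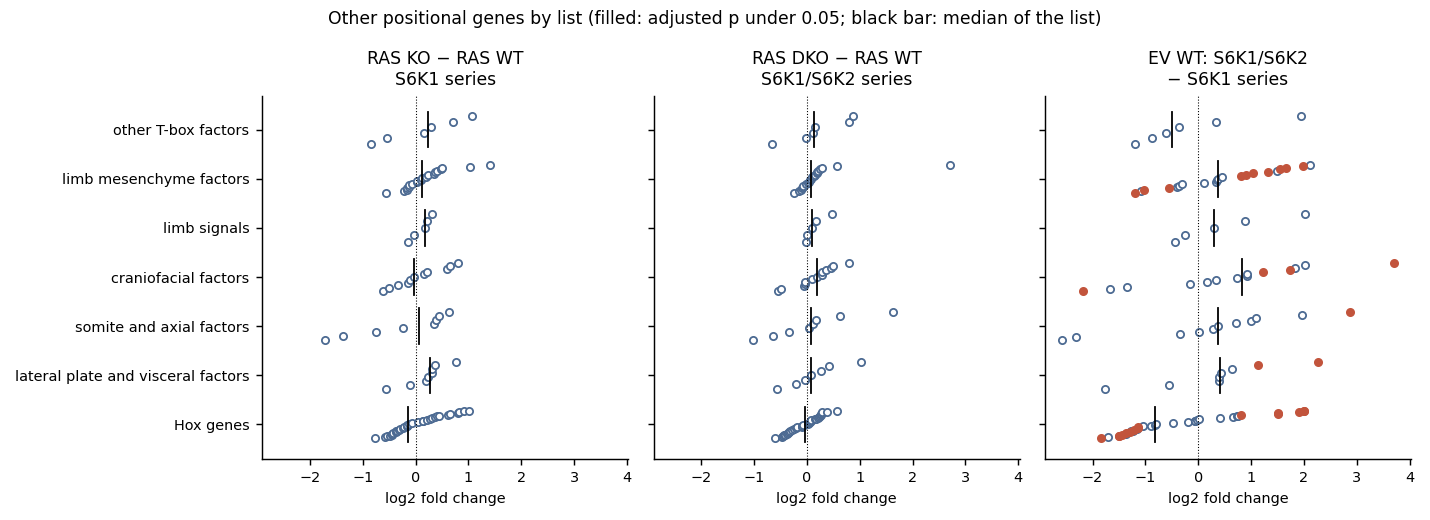
Log2 fold change (x axis) of each tested gene of the 7 lists of other positional genes (y axis), for KO RAS against WT RAS, DKO RAS against WT RAS, and the wild-type EV libraries of the S6K1/S6K2 series against those of the S6K1 series, with filled points for an adjusted edgeR p under 0.05. No point is filled in the KO and DKO panels, and 32 of 99 are filled in the panel of the wild-type sets.

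Because Tbx4 lies near the targeted Rps6kb1 (chr11:86312373-86358307), its surroundings were read in both loss comparisons. KO and DKO lines both lack S6K1. Of the genes within 1 Mb of Rps6kb1, Tbx4 and Tbx2 included, 22 were tested with KO. Of these 1 was called, beside 0.00712% of all genes. An unadjusted edgeR p under 0.05 was found for 7, beside 6.86% of all genes. Those were 3 higher, Tbx4, Tbx2 and Rnft1, and 4 lower. With DKO 21 were tested and none was called, beside 0.0216% of all genes. Such a p was found for 4, beside 1.29% of all genes, 1 higher (Tbx2) and 3 lower. Dhx40, a helicase gene 224.0 kb from Rps6kb1, fell by 1.08 (SE 0.10, adjusted p = 0.0168, edgeR) with KO and had a log2 change of -1.02 (SE 0.16, adjusted p = 0.206, edgeR) with DKO. Tbx2, the T-box paralog beside Tbx4 and 656.9 kb from Rps6kb1, was at 3.24, 4.13 and 6.43 CPM in the RAS libraries of S6K1 WT cells and 6.55, 7.28 and 8.83 in those of KO cells. It was at 7.35, 8.1 and 7.97 CPM in the RAS libraries of S6K1/S6K2 WT cells and 10.2, 13.7 and 16.9 in those of DKO cells. Both comparisons were without overlap for Tbx2, at 0.71 (SE 0.29, adjusted p = 0.641, edgeR; 0.036 with the block) and 0.80 (SE 0.23, adjusted p of 1). Tbx4 itself stood at 1.57 with KO and -0.28 with DKO. Whether sequence linked to the targeted allele has a part in these values was not tested.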

How the data were processed

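Polyadenylated RNA of 18 mouse embryonic fibroblast libraries was sequenced, and the authors deposited raw gene counts per library, not normalised. The study's methods name a stranded library kit, mapping to mm9 with TopHat and counting with HTSeq, whereas the submitters' processing notes list CASAVA, STAR 2.7.1a, DESeq2 1.28.1 and mm10. The conflict was not resolved, the strand setting of the counting is not given in the sources used here, and the count table uses identifiers newer than the NCBIM37 annotation from which positions are given. In the NCBIM37 annotation the only gene overlapping a member was another Alx1 entry, which has no row in the count table. Overlaps with genes annotated later were not checked.

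Counts were tested with the quasi-likelihood test of edgeR 4.0.16 in R 4.3.3, two-sided, on the 9 libraries of each series with group as the only term, filterByExpr (minimum count 10), TMM scaling and Benjamini-Hochberg adjustment over all genes tested (threshold 0.05). Contrasts between series used all 18 libraries. CPM are TMM-scaled, and "called" means an adjusted p under 0.05. Groups followed the sample labels. Library totals were 8319445 to 14402442 counts, and floors of 3 counts cover counting error only. All replicate pairs differed beyond sampling noise. The methods state 3 independent pairs of lines, from separate embryos, for the S6K1 series.

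Replicate numbers were checked for pairing by the correlation of deviations from the group means over 14483 genes. It was 0.655, 0.422 and 0.646 for EV and RAS of the S6K1 series, 0.672, 0.373 and 0.599 for WT and KO, and 0.381, 0.304 and 0.301 for EV and RAS of the S6K1/S6K2 series, so these numbers were taken to pair libraries, with the littermate design of the methods in the S6K1 series. For WT and DKO it was 0.287, 0.424 and -0.029, and the numbers do not pair them.

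The members and lists were chosen with earlier results of these data known. Besides the members, each comparison names at most 6 called genes at either end of the fold changes. Where fewer than 3 passed, the 3 of smallest p were taken. Rps6kb1, Rps6kb2, Tbx2, Dhx40 and Hras were a fixed set, not named in every comparison. Genes called in both series, called under the block, or counted in a list were named in addition after their values were seen. DESeq2 1.42.0, other scalings and filters, the replicate block, a fit of all 18 libraries and leaving out each library were the alternatives. The scripts were tested on simulated data. Lhx8, Hoxd4 and the marker Sox1 had no matching row. Of the 55401 genes, 32589 have a symbol, and these hold 99.1% of counts. One neural marker, and the sum over the neural list, are not reported here.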

Additional observations from a re-analysis of the deposited data

How the results depend on the processing

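Of the members' log2 fold changes under another test, scaling, filter, block or sample set, 301 kept their direction and their side of the threshold, 19 passed it newly and 2 reversed: Tbx18 with RAS in the S6K1/S6K2 series under upper-quartile scaling (-0.012) and Tbx15 with DKO without the filter on low counts (0.006). With the replicate block, where the numbers pair the libraries, calls rose to 7 members and 41 other positional genes for RAS in the S6K1 series, and to 3 members and 7 other genes for KO. For DKO, whose numbers were not taken to pair with WT, the block called no member. The wild-type EV sets were not compared with a block, since replicate numbers do not link lines of separate series. For KO, DESeq2 and the fit without a filter each called 2 members, and the latter 1 other gene, Msx1. For DKO, DESeq2, the fit without a filter and the fit of all 18 libraries each called 1 member, En2, whose adjusted p ranged from 6.75e-05 to 0.467 over the alternatives. The cause was not tested.

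Leaving out each library moved the member calls for RAS in the S6K1 series between 0 and 2, reaching 0 when WT RAS replicate 2 was left out and 1 when either WT EV replicate 2 or WT RAS replicate 1 was. Calls of other positional genes ranged from 8 to 15 there and from 19 to 35 in the S6K1/S6K2 series, both lowest with WT RAS replicate 2 left out. Tbx15 in the S6K1 series lost its call without any of 4 libraries (adjusted p up to 0.0865), and Lhx9 without WT RAS replicate 2 (0.0503). For KO, Pitx1 stayed between 1.65 and 2.19 and Tbx4 between 1.40 and 1.73, with adjusted p from 0.0824 and 0.111 up to 1. Ranges that crossed 0, none of them called, were for RAS in the S6K1 series Pitx1 (-0.16 to 0.25) and Alx1 (-2.57 to 1.89), for KO Tbx15 (-0.066 to 0.094) and Alx1 (-2.004 to 2.87), and for RAS in the S6K1/S6K2 series Tbx18 (-0.20 to 0.27), Emx2 (-0.172 to 0.038) and Alx1 (-0.68 to 1.45). For DKO they were Tbx5 (-0.11 to 0.58), Tbx15 (-0.10 to 0.10), En1 (-0.40 to 0.29), Lhx9 (-0.14 to 0.20) and Alx1 (-0.83 to 1.22), and for the wild-type EV sets Tbx5 (-0.21 to 0.80), Tbx18 (-0.15 to 0.31) and Alx1 (-0.40 to 3.41). Depth limits Alx1 and En2, which had few counts in most libraries.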
